A study of Homo sapiens with 12 samples.

Results

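LMTK2, EVC2, CSRP1, CPNE5, KIAA0040 and GATD1 are 6 of 20037 human protein-coding genes, and they are described here by where 3 lists of ATAC-seq regions fall in them. ATAC-seq uses a transposase to mark DNA that it can reach. The 6 genes were chosen by the number of regions that the list for OSU-ERb-12, a ligand of oestrogen receptor beta, places in them, which is far above what the length of the locus predicts. A locus runs from 10 kb before to 10 kb after the gene body, with RefSeq positions on GRCh38. The 6 loci span 572.0 kb in all and hold 40 of the 17931 OSU-ERb-12 regions, 13 of the 25317 enzalutamide regions and 4 of the 6248 regions for both agents, called combination regions below. The number of OSU-ERb-12 regions is therefore given as a description, without a test.

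The cells were 22Rv1, an established human prostate cancer line, labelled with a WT genotype in every sample. The 4 groups of 3 samples were OSU-ERb-12 (100 nM, 6 h), enzalutamide (1 µM, 6 h), OSU-ERb-12 plus enzalutamide (6 h, with no doses in their own labels) and vehicle. The labels call the samples of a group biological replicates. The lists give positions on hg38 without a value per sample or per region, and neither the direction of the listed differences nor the sequencing depth is given in the sources used here. All 3 list names carry the parts neg and sig, which these sources do not explain, so whether a list holds 1 direction or both is not known. All statements are therefore about positions and sharing, carry no replicate error, and do not say whether a region was more or less accessible. The comparison behind each list is not described either, and vehicle was taken as its control. The sample titles of the OSU-ERb-12 group carry the prefix WT, as does the name of the list used for it, and no other source ties that list to the agent.

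Oestrogen receptor beta is a nuclear receptor that binds DNA when a ligand occupies it, mostly at sites away from gene starts, and enzalutamide blocks the androgen receptor, the main driver of prostate cancer growth. The 6 genes are not known as members of a common pathway. LMTK2 encodes a membrane-anchored kinase of endosomal trafficking, and EVC2 a protein of the primary cilium that works with EVC in Hedgehog signalling. CSRP1 encodes a LIM-domain protein of the actin cytoskeleton, CPNE5 a copine, which is a calcium-dependent membrane-binding protein, and GATD1 a protein with a glutamine amidotransferase-like domain that is also named as a subunit of the endosomal FERRY complex. KIAA0040 encodes a small protein without an established function.

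Within 1 kb of an annotated gene start lay 5 of the 40 OSU-ERb-12 regions (12.5%, exact Clopper-Pearson 95% interval 4.19 to 26.8). The share was 7.7% in the 16535 regions of the whole list on chromosomes for which starts were used. The sequences of RefSeq start windows (GRCh38.p14, 250 bases before to 50 after a start) are shown for the 4 places in the loci where an OSU-ERb-12 region came closest to one. All 6 genes had at least 1 such window. In CSRP1 a region overlapped the window of an inner start, at chr1:201496524-201496823 on the minus strand. Capitals mark the 27 bases that lie in the OSU-ERb-12 region, which began 23 bases downstream of the start.
CSRP1 inner start: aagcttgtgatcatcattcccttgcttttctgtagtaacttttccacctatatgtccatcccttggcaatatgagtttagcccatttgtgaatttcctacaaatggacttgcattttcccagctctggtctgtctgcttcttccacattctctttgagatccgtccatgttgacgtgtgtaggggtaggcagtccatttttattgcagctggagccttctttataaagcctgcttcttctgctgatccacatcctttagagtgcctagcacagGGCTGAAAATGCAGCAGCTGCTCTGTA

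The other 3 windows, those of KIAA0040, GATD1 and EVC, lay beside a region without overlapping it. They were chr1:175192938-175193237 (minus strand, 63 bp from the OSU-ERb-12 region), chr11:777438-777737 (minus strand, 113 bp) and chr4:5710951-5711250 (plus strand, 250 bp). EVC is the neighbour of EVC2 and starts in the opposite direction. Capitals in these sequences mark each GC box, the letters GGGCGG on either strand.
KIAA0040: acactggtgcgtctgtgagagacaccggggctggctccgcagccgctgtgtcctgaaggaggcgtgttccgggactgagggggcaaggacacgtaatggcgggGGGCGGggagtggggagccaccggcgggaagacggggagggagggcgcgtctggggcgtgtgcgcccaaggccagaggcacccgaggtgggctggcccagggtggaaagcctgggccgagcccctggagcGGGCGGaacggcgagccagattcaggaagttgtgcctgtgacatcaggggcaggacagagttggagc
GATD1: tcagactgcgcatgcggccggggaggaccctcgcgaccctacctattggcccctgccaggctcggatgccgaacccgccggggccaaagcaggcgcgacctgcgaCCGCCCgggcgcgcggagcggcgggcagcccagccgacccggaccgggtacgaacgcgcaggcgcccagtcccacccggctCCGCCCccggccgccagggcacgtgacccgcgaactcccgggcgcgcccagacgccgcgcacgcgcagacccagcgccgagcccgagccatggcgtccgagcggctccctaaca
EVC: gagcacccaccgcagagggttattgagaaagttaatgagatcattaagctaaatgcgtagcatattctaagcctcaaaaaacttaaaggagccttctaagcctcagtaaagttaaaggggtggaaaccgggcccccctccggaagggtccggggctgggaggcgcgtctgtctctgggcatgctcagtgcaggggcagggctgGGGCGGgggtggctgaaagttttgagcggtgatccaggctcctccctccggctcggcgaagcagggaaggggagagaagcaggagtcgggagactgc

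The windows of KIAA0040 and GATD1 were rich in G and C, at 69.7 and 77.3%, with 22 and 47 CpG sites. That of EVC was near the median of all start windows, at 57.7% with 13 CpG sites. The inner CSRP1 start had 44.7% and only 2 CpG sites. The median over 35116 RefSeq start windows was 58.7%, with 14 CpG sites. GC boxes numbered 2 in KIAA0040, 2 in GATD1, 1 in EVC and 0 in the inner CSRP1 window, and 45.0% of all start windows hold at least 1. None of the 4 windows held the palindromic oestrogen response element, searched as AGGTCA and TGACC with 3 bases between them (in 0.0313% of all windows), or the hexamer AGGTCA alone (13.8%). None held the androgen response element, searched as AGAACA and TGTTC with 3 bases between them (0.0114%), the AP-1 element TGANTCA (7.71%) or the forkhead element TGTTTAC (3.42%). Both strands were searched. The hexamer is contained in the oestrogen response element, so matches to both would overlap. The windows hold at most 27 bases of a listed region, so these counts say nothing of the regions themselves.

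The 6 loci held 9 OSU-ERb-12 regions in LMTK2, 7 in EVC2, 7 in KIAA0040, 6 in CSRP1, 6 in CPNE5 and 5 in GATD1. Of all protein-coding loci 39.1% held at least 1 region of this list and 1.74% at least 5. At the mean density of the list on each chromosome, 1.16 regions would be expected in LMTK2, 0.597 in EVC2, 0.556 in KIAA0040, 0.433 in CSRP1, 0.444 in CPNE5 and 0.172 in GATD1. The ratios of listed to expected regions ran from 7.74 in LMTK2 to 29.1 in GATD1, and 0.115% of all protein-coding loci held at least 5 regions with a ratio at or above the lowest of the 6.

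The surroundings of the loci were themselves denser than their chromosomes. In the 10 Mb around each locus, without the locus, the OSU-ERb-12 list held 11.0 regions per Mb for LMTK2 against 9.47 on chromosome 7, and 8.88 for EVC2 against 2.98 on chromosome 4. The corresponding densities were 17.8 for CSRP1 and 19.4 for KIAA0040 against 9.92 on chromosome 1, 6.27 for CPNE5 against 3.73 on chromosome 6, and 6.81 for GATD1 against 5.67 on chromosome 11. With these densities the ratios were 6.64 in LMTK2, 3.93 in EVC2, 7.74 in CSRP1, 8.02 in CPNE5, 6.44 in KIAA0040 and 24.3 in GATD1. EVC2 moved most, since its ratio was 11.7 at the mean density of chromosome 4.

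**Figure D1:**
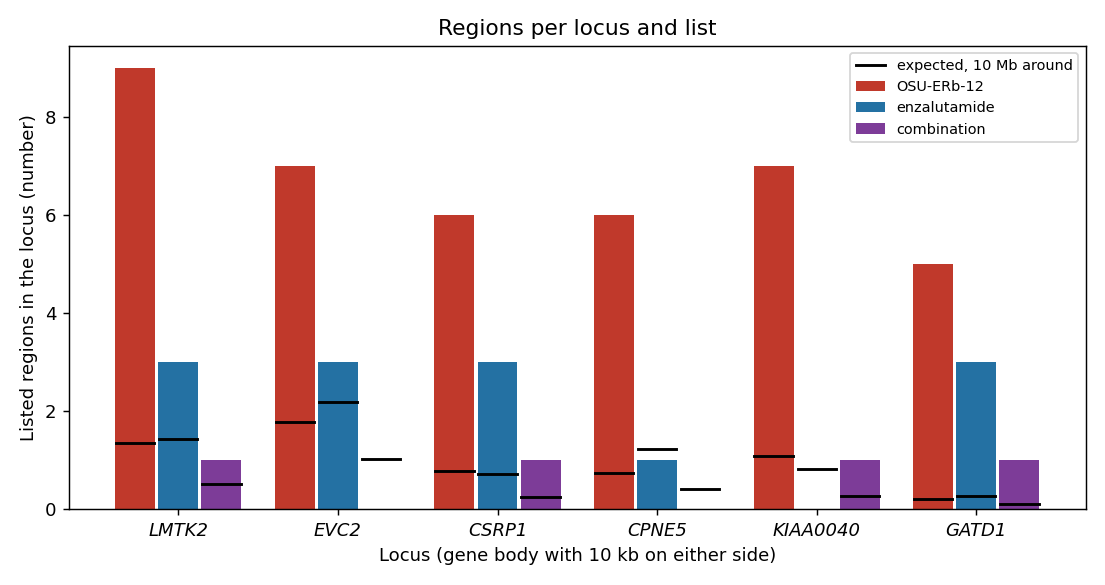
Bars give the number of listed regions in each locus (gene body and 10 kb flanks) for OSU-ERb-12, enzalutamide and the combination, and black lines the number expected from the 10 Mb around the locus. OSU-ERb-12 bars stand between 5 and 9, enzalutamide bars between 0 and 3 and combination bars at 0 or 1.

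The 6 genes were chosen for counts far above what locus length predicts. That few loci of like length hold as many regions follows from this choice, so the counts below only describe it. Of 813 other loci within 10% of the length of LMTK2, none held 9 OSU-ERb-12 regions and the most was 8. For CSRP1 (1958 loci of like length, most 4), KIAA0040 (1560, most 5) and GATD1 (2591, most 4) no locus of like length held as many either. CPNE5 was matched or exceeded by 3 of 864 loci of like length and EVC2 by 4 of 459. When shorter loci were counted too, none of those no longer than LMTK2, CSRP1 or KIAA0040 held as many regions, while 2 did for GATD1, 7 for CPNE5 and 12 for EVC2.

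**Figure D2:**
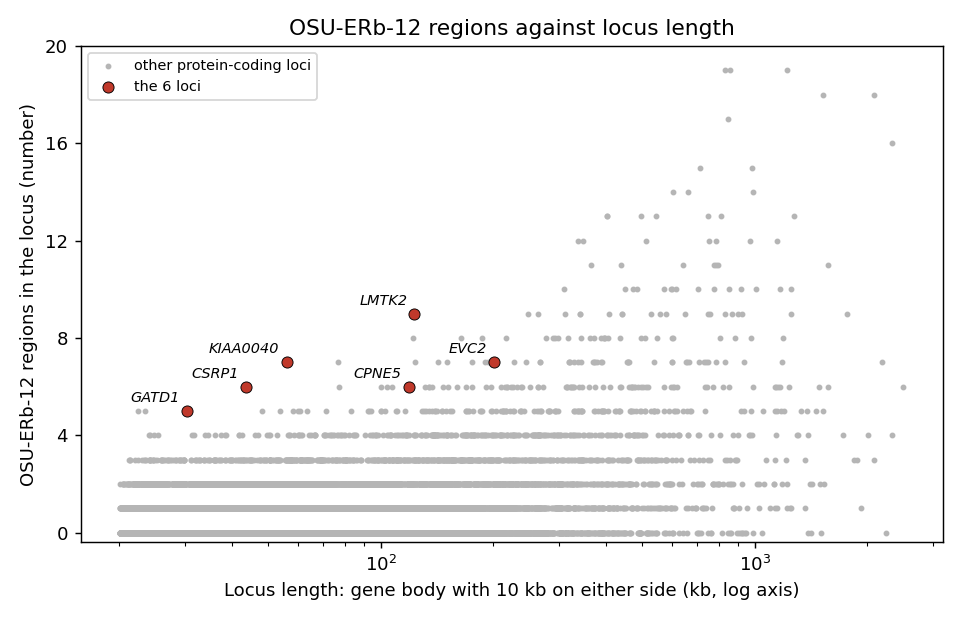
Each grey point is 1 or more protein-coding loci, placed by locus length in kb (log axis) and by the number of OSU-ERb-12 regions, and the 6 loci are red. LMTK2, KIAA0040, CSRP1 and GATD1 lie above the loci of like length, whereas CPNE5 and EVC2 have others of like length at or above them. The 6 loci were chosen for counts that are high for their length.

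The membership has no sharp edge. Loci were ranked by the one-sided Poisson probability of as many regions or more, given the number expected on the chromosome, with overlapping loci left out. This probability served as a ranking and not as a test, and by it the 6 genes took ranks 2, 3, 4, 6, 7 and 8. The last of them, CPNE5 (6 regions, 0.444 expected), was followed by KREMEN2, which encodes a receptor for Wnt antagonists (4 regions, 0.127 expected). Ranks 1 and 5 were LOC124900940 (5 regions, 0.0992 expected) and the proteasome subunit gene PSMB4 (5 regions, 0.222 expected), which are not among the 6.

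Most of the 40 regions lay inside the gene they were assigned to. The body of the member gene held 29 of them (72.5%, exact 95% interval 56.1 to 85.4), and bodies make up 79.0% of the length of the loci. Per 100 kb the bodies held 6.41 OSU-ERb-12 regions and the flanks 9.17. Taking 50 kb in place of 10 kb on either side added 480 kb and 7 regions, but the loci were chosen by their number within 10 kb, so a lower density farther out follows from the choice. Only 3 of the 40 lay in the body of another protein-coding gene, namely 1 in EVC, 1 in TALDO1 (transaldolase of the pentose phosphate pathway) and 1 in the predicted gene LOC124900301 beside GATD1. Without these 3 there were 37.

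LMTK2 (chromosome 7, 98106862 to 98209638, plus strand) held all 9 of its OSU-ERb-12 regions in the gene body. They began at 98112351, 98133701, 98152401, 98179751, 98184001, 98193851, 98195101, 98197101 and 98204851. The last 6 lay between 71.0 and 95.4% of the gene length from the start, and those at 98193851, 98195101 and 98197101 were 1050 and 1800 bp apart. No LMTK2 region lay within 1 kb of a gene start or a gene end.

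The enzalutamide and combination regions of LMTK2 lay in the remaining part of the gene. Enzalutamide regions covered 98122701 to 98122900, 98142151 to 98142350 and 98164151 to 98164350, each between OSU-ERb-12 regions and 8200 to 11550 bp from the nearest one. The combination region, 98124151 to 98124350, was 1250 bp from the first enzalutamide region and 9350 bp from an OSU-ERb-12 region. None of the 13 regions in LMTK2 overlapped a region of another list.

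EVC2 (chromosome 4, 5529011 to 5709548, minus strand) had the widest spread, with its 7 OSU-ERb-12 regions over 142.0 kb. Inside the gene they began at 5570201, 5616401, 5626801, 5650051, 5663051 and 5704301, with gaps of 10200 to 46000 bp. Of the regions inside the gene, the one nearest the EVC2 start, 5704301 to 5704500, lay 4059 bp from it and was 1500 bp from the enzalutamide region 5706001 to 5706200. Another enzalutamide region, 5683701 to 5683900, was 20400 bp from the nearest OSU-ERb-12 region.

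At the EVC end of the locus regions of both single agents coincided. The OSU-ERb-12 region 5711501 to 5711750 and the enzalutamide region 5711401 to 5711700 overlapped by 200 bp, and both lay inside EVC, beginning 300 and 200 bp downstream of the start whose sequence is given above. The nearest combination region was 175850 bp from it, and the EVC2 locus held none, as did 20.7% of the 348 loci with at least 5 OSU-ERb-12 regions. EVC itself held 2 OSU-ERb-12 and 2 enzalutamide regions in its own locus, all of them counted for EVC2 as well.

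CSRP1 (chromosome 1, 201483530 to 201507123, minus strand) is one of the shorter genes, and its 6 OSU-ERb-12 regions lay in the gene and on both sides of it. Those at 201490801, 201496351 and 201498651 lay in the gene, the second of them 23 bases downstream of the inner start. Those at 201515101 and 201516301, 1000 bp apart, lay upstream in the lncRNA genes CSRP1-AS1 and LOC124904484. The sixth, 201479401 to 201479750, lay 3779 bp past the 3′ end and contained the combination region 201479551 to 201479750 entirely, an overlap of 200 bp.

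No enzalutamide region overlapped an OSU-ERb-12 region at CSRP1. Enzalutamide regions lay at 201482851 to 201483050, 479 bp past the 3′ end, at 201502051 to 201502250 in the gene, and at 201512901 to 201513200 upstream. The gap between each OSU-ERb-12 region and the nearest enzalutamide region was 1700 to 7750 bp. Enzalutamide regions at this locus numbered 3, where 0.727 would be expected from the surrounding 10 Mb.

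CPNE5 (chromosome 6, 36740775 to 36839998, minus strand) held 5 OSU-ERb-12 regions in its body and 1 upstream. They began at 36778451, 36780951, 36788851, 36819651, 36825301 and 36843451. The region 36788851 to 36789500 was 650 bp wide, and 0.323% of the whole list reached 600 bp. The only other listed region of the locus was an enzalutamide region, 36743701 to 36743900, at 96.4% of the gene length and 34550 bp from the nearest OSU-ERb-12 region. No OSU-ERb-12 region lay within 1 kb of any of the 3 annotated CPNE5 starts, the nearest being 4007 bp from one, and the nearest combination region was 115900 bp from the closest OSU-ERb-12 region.

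KIAA0040 (chromosome 1, 175156986 to 175192987, minus strand) was the only one of the 6 loci without an enzalutamide region. The same held for 4.02% of the 348 loci with at least 5 OSU-ERb-12 regions. Over all protein-coding loci, whatever their length, only 58.3% held an enzalutamide region. Its 7 OSU-ERb-12 regions began at 175151501, 175159001, 175169151, 175184351, 175189451, 175193301 and 175201051, with gaps of 3650 to 15000 bp. The first of these positions belongs to a region of 650 bp beyond the 3′ end, towards TNN, which encodes the matrix protein tenascin N. The region 175193301 to 175193600 lay 314 bp upstream of the start, just outside the sequence printed above.

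The enzalutamide regions nearest to KIAA0040 were 24650 to 43550 bp from its OSU-ERb-12 regions. At the enzalutamide density of the surrounding 10 Mb, 0.822 regions would be expected in a locus of this length. The combination region 175200451 to 175200700 was 350 bp from the OSU-ERb-12 region 175201051 to 175201250, without overlap.

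GATD1 (chromosome 11, 767222 to 777487, minus strand) is the shortest of the 6 genes, and its 5 OSU-ERb-12 regions lay within 20.6 kb. Those at 776751 to 777000 and 777851 to 778050 flanked the start, 487 bp downstream and 364 bp upstream of it, 850 bp apart. The upstream one lay in the divergent genes GATD1-DT, a lncRNA gene, and LOC124900301. The others were 773251 to 773600 in GATD1, 784001 to 784300 in GATD1-DT and 763651 to 763850 in TALDO1.

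GATD1 was the locus with the most sharing. The OSU-ERb-12 region at 776751 overlapped the enzalutamide region 776901 to 777100 by 100 bp, and the one in TALDO1 overlapped the enzalutamide region 763701 to 763900 by 150 bp. The remaining enzalutamide region, 763151 to 763350, also lay in TALDO1. The combination region 765201 to 765400, between GATD1 and TALDO1, overlapped neither list and was 1350 bp from an OSU-ERb-12 region.

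**Figure D3:**
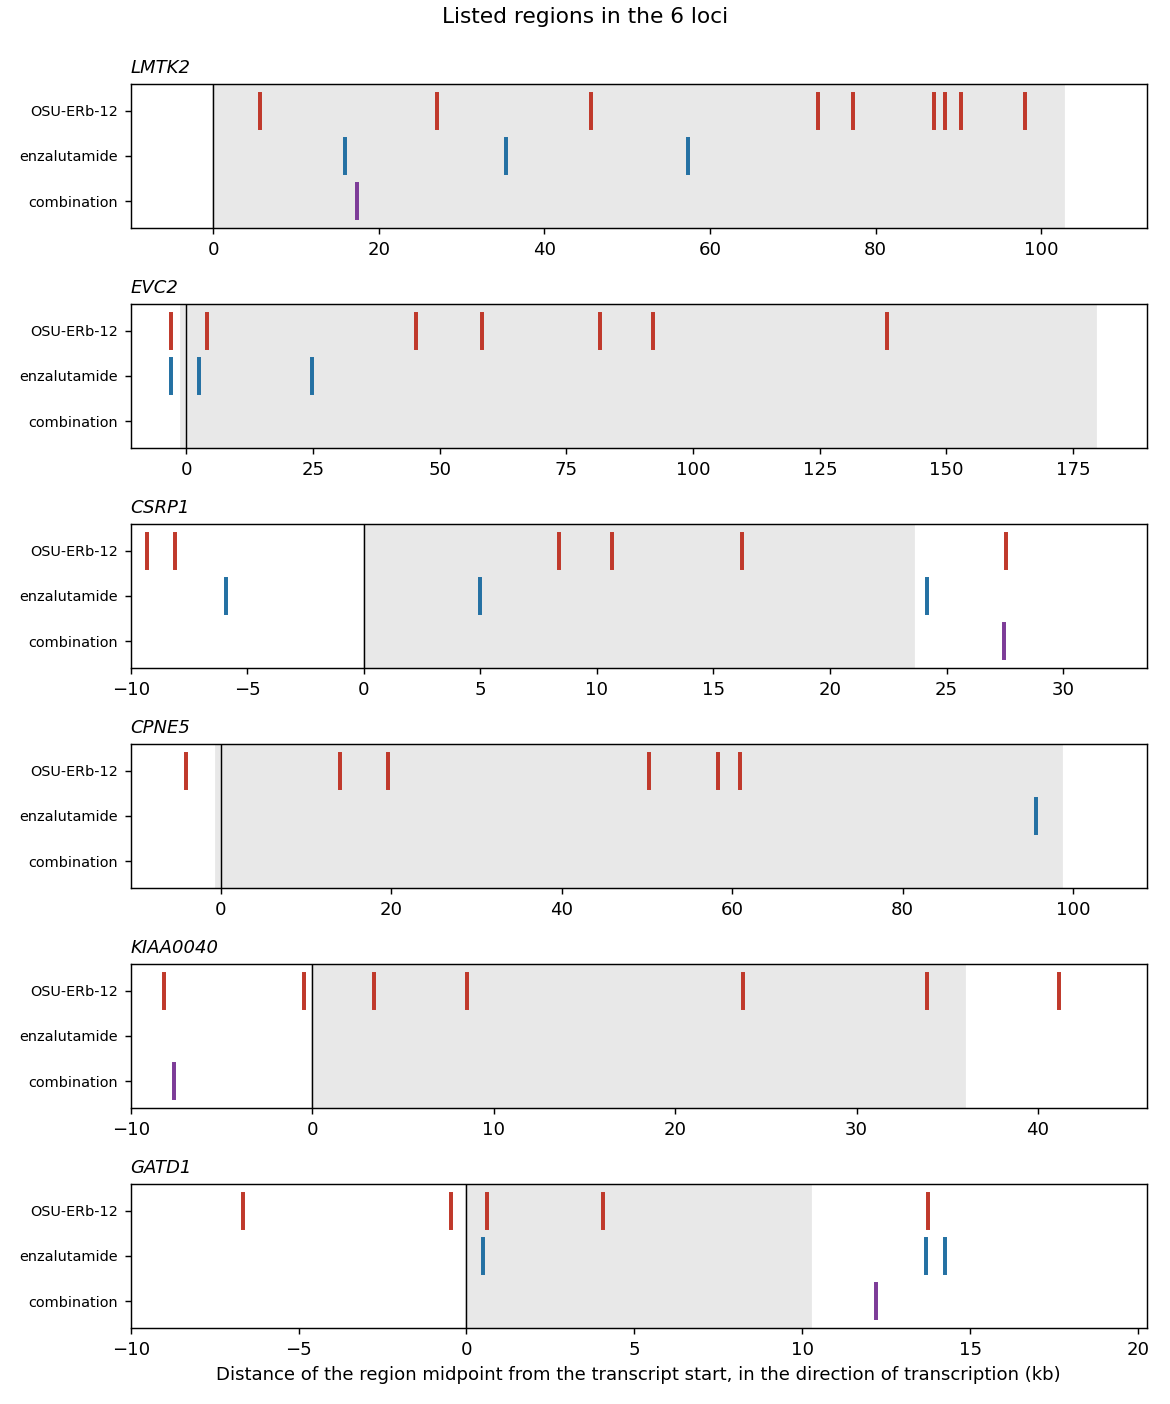
The midpoints of all listed regions are drawn along each locus as distance from the transcript start in kb, in the direction of transcription, with 1 row per list. Grey marks the gene body and the vertical line the start. LMTK2 regions of OSU-ERb-12 gather in the far part of the gene, and EVC2 and GATD1 have enzalutamide marks directly under OSU-ERb-12 marks.

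Across the 6 loci, 3 of the 40 OSU-ERb-12 regions overlapped an enzalutamide region by 1 bp or more (7.5%, exact 95% interval 1.57 to 20.4), where 8.72% of the whole list did. These 3 lay in EVC, GATD1 and TALDO1, so 2 of the 3 were outside the body of the 6 genes. A combination region overlapped 1 of the 40 (2.5%, 0.0633 to 13.2), against 4.43% of the whole list. The intervals cover counting error only and include the shares of the whole list. No position in the 6 loci was in all 3 lists, and none of the 13 enzalutamide regions overlapped a combination region.

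The loci divided by how near the other lists came. The median gap from an OSU-ERb-12 region to the nearest enzalutamide region was 25275 bp over the 40 regions and 25150 bp over the whole list. It was 750 bp in GATD1 and 3150 bp in CSRP1, but 19650 bp in LMTK2, 33400 bp in KIAA0040, 33450 bp in EVC2 and 41000 bp in CPNE5. For the combination list the medians were 11350 bp in GATD1, 15900 bp in KIAA0040, 17750 bp in CSRP1, 59650 bp in LMTK2, 154850 bp in CPNE5 and 237350 bp in EVC2, with 38900 bp over the 40 regions and 95600 bp over the whole list. Gaps within a locus share the same neighbouring regions and are not independent.

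**Figure D4:**
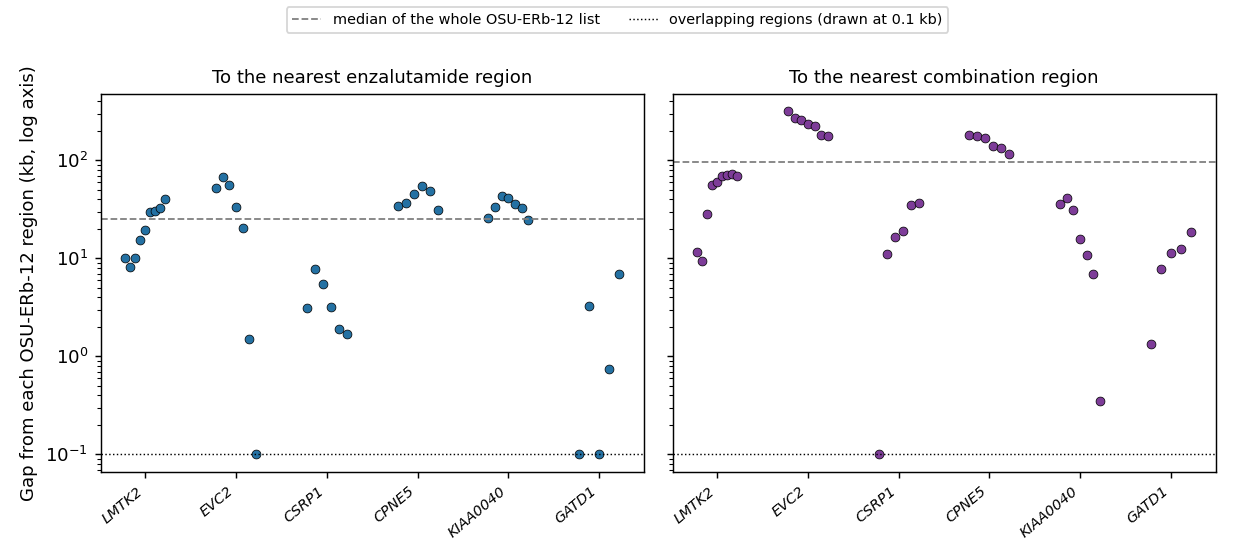
Each point is 1 OSU-ERb-12 region, ordered by position within its locus, and its height is the gap in kb (log axis) to the nearest enzalutamide region (left) or combination region (right). Overlapping regions are drawn at 0.1 kb and dashed lines are medians of the whole OSU-ERb-12 list. GATD1 and CSRP1 points lie below the line for enzalutamide, CPNE5 points above both lines and EVC2 points above the line for the combination.

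An enzalutamide region was present in 5 of the 6 loci and a combination region in 4, against 58.3% and 21.7% of all protein-coding loci. Of the 348 loci with at least 5 OSU-ERb-12 regions, 96.0% held an enzalutamide region and 79.3% a combination region. Whether the length of these loci or the density around them accounts for these shares was not tested. All 6 loci held more OSU-ERb-12 than enzalutamide regions, as did 72.4% of the 348. Both sets were chosen by their OSU-ERb-12 counts, which favours this outcome. Summed over the 6 loci, the 13 enzalutamide regions compare with 6.66 expected from the 10 Mb around each, a ratio of 1.95, and the 4 combination regions with 2.58, a ratio of 1.55. At the mean densities of the chromosomes 4.74 and 1.13 would be expected, with ratios of 2.74 and 3.55. For OSU-ERb-12 the ratios were 6.72 and 11.9, which the choice of loci fixed. The enzalutamide ratios with the 10 Mb density differed by locus: 10.9 in GATD1, 4.13 in CSRP1, 2.1 in LMTK2, 1.37 in EVC2, 0.821 in CPNE5 and 0 in KIAA0040. Expected numbers assume an even density, while 22.4% of the enzalutamide list lay within 1 kb of a gene end. No such ratio over all protein-coding loci is given, so the sums do not show an excess particular to these loci.

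Most OSU-ERb-12 regions of the 6 loci were 200 bp wide, and most lay away from gene ends. Regions of 200 bp made up 24 of the 40 (60.0%, exact 95% interval 43.3 to 75.1) and 66.1% of the whole list. The widest were the 650 bp regions of CPNE5 and KIAA0040, whereas only 0.323% of the whole list reached 600 bp. Within 1 kb of an end of a protein-coding gene lay 4 of the 40 (10.0%, 2.79 to 23.7; 8.09% in the whole list), at EVC, at KIAA0040 and on both sides of the GATD1 start. Within a locus the gap between neighbouring OSU-ERb-12 regions ran from 850 to 46000 bp, with a median of 7575 bp over 34 gaps.

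The 23 related genes were family members, EVC and 9 Hedgehog pathway genes. Of these, 12 held an OSU-ERb-12 region, 16 an enzalutamide region and 10 a combination region, beside 39.1, 58.3 and 21.7% of all protein-coding loci. These shares take no account of locus length. They also include EVC, whose regions are counted for EVC2 as well, a locus chosen for its high count. The largest OSU-ERb-12 count of the related genes was 6 and their median 1, where the median over all loci was 0. No comparison with the counts of the 6 genes is drawn, since those were chosen for being high. The lemur kinase genes AATK and LMTK3 held 0 OSU-ERb-12 regions (0.45 and 0.46 expected), with 1 and 3 enzalutamide regions (0.789 and 0.77 expected). Of 8 other copine genes 4 held an OSU-ERb-12 region, at most 3 (CPNE4, 5.76 expected, and CPNE8, 2.91 expected), while 7 held an enzalutamide region. CSRP2 held 1 OSU-ERb-12 region (0.428 expected). CSRP3, the muscle LIM protein gene, and PARK7, of the superfamily that GATD1 belongs to, held 0 (0.227 and 0.435 expected). With so few expected, a count of 0 says little.

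Among the Hedgehog genes, 6 of 9 held an OSU-ERb-12 region, beside 39.1% of all protein-coding loci. This comparison takes no account of locus length, so it does not show an excess. The transcription factor gene GLI3 had 6 (3.06 expected) beside 8 enzalutamide regions (3.27 expected). PTCH1, the Hedgehog receptor gene, held 2 OSU-ERb-12 regions (0.402 expected) and 0 enzalutamide regions. The inhibitor gene SUFU held 2 (0.777 expected) and 5 (1.25 expected), and the transducer gene SMO held 0 of both (0.425 and 0.454 expected). IQCE and EFCAB7, whose products anchor the EVC complex, held 1 and 0 OSU-ERb-12 regions (0.717 and 0.812 expected).

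Genes with a like pattern were sought by the sum of absolute differences between the 3 region counts and then by locus length on the log2 scale. KCNN3 had the counts of EVC2 (7 OSU-ERb-12, 3 enzalutamide and 0 combination regions), with a length difference of 0.06, and BRINP2 those of CPNE5 (6, 1 and 0), with 0.14. Their counts were less far above expectation, with 1.91 OSU-ERb-12 regions expected in KCNN3 against 0.597 in EVC2, and 1.3 in BRINP2 against 0.444 in CPNE5. POGZ was the only gene with the counts of KIAA0040 (7, 0 and 1), and its locus overlaps that of PSMB4, so these are not separate places. GSN shared the counts of CSRP1 (6, 3 and 1) and LGR6 those of GATD1 (5, 3 and 1), in loci longer by 1.80 and 2.27 on the log2 scale. No gene had those of LMTK2 (9, 3 and 1, in a locus of 123.0 kb), and the nearest by count, both with 9, 4 and 1, had loci of 578.0 and 868.0 kb.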

How the data were processed

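ATAC-seq of 12 samples in 4 groups was represented by 3 lists of regions. ATACSeqQC was used to set apart nucleosome-free fragments, per the labels' protocols. The submitters' processing notes name FastQC, Trimmomatic and hg38. The sources used here do not say how regions were called and compared, how replicates were pooled or how the transposase offset was handled. The authors deposited a score of 0 for all regions, which allows no ranking, and the other deposited columns used are region starts and ends in bp. Depth per sample is unknown, which limits the length of each list.

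Starts were shifted by 1 so that coordinates are 1-based. Genes came from RefSeq (GRCh38.p14) on 24 chromosomes, and gene starts and strands from its table of 35116 start windows, which was matched for all 6 genes. Exons were not used. Regions overlapping a locus were counted, regions of different lists were shared from 1 bp of overlap, and gaps are the bases between regions. Expected numbers are locus length times the regions per bp of that chromosome, or of the 10 Mb around the locus, cut at the chromosome end for GATD1. Chromosome extents ran to the outermost gene or region. Shares have exact Clopper-Pearson intervals at 95%. No test was run, because the members were chosen by the same list and no list holds replicates. The counting was tested on simulated data: 200 loci of a randomly placed OSU-ERb-12 list gave 0 mismatches and 1.01 times the expected number.

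The members, related genes and settings were chosen with earlier results of these data known. Genes named are the members, genes that hold or lie nearest to a listed region, the related genes, the nearest genes by counts and the highest-ranking genes outside the members. Some genes that this rule takes are not reported here. Python 3.11.15, pandas 2.3.3, NumPy 2.4.6, SciPy 1.17.1 and matplotlib 3.10.9 were used.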

Additional observations from a re-analysis of the deposited data

How the results depend on the processing

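Of 70 alternative values for 12 results, 42 stayed within 1.5 times the reported value, 28 moved farther and 0 reversed. The last number is no sign of stability, because counts have no direction and the ratios belong to loci chosen for being high. The 40 OSU-ERb-12 regions became 16 when regions of 200 bp were left out, and under the other windows and merging they ranged from 29 to 47. Enzalutamide regions in the loci (13) numbered 8 in gene bodies alone, 27 with 50 kb on either side and 2 without those of 200 bp. Combination regions (4) numbered 1, 7 and 1 under the same settings. OSU-ERb-12 regions shared with enzalutamide (3) numbered 1 in gene bodies, 1 without regions of 200 bp and 1 without regions in other protein-coding genes. Those shared with the combination (1) numbered 0 in gene bodies, 0 without regions of 200 bp, 2 with 50 kb and 2 with neighbours within 500 bp counted. Regions at gene ends (4) numbered 1 in gene bodies and 2 without other protein-coding genes. The ratio to the expected number fell with the 10 Mb around to 3.93 in EVC2 (11.7), 7.74 in CSRP1 (13.9), 8.02 in CPNE5 (13.5) and 6.44 in KIAA0040 (12.6). With 1 Mb on either side it was 3.49 in EVC2, 5.73 in CSRP1, 5.3 in CPNE5, 5.43 in KIAA0040 and 19.2 in GATD1 (29.1). With 50 kb flanks it was 4.89 in CSRP1, 7.41 in KIAA0040 and 9.59 in GATD1. The ratio of LMTK2 stayed within 1.5 times under all of these. The setting without other genes and the 1 Mb density were chosen after seeing the data. No paired analysis was possible because the lists hold no value per sample, and for the same reason no replicate could be left out. With 40 regions, shares within the printed intervals cannot be told apart. The intervals treat the regions as independent, although they come from only 6 chosen loci, so they may be too narrow.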
